A study of Mus musculus with 30 samples.

Results

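The insulin-like growth factors (IGFs) and their binding proteins were examined in AML12 cells, a hepatocyte line derived from mouse liver. The 9 genes were taken by name after the deposited Ensembl identifiers had been matched to mouse symbols: the ligands Igf1 and Igf2 and the binding proteins Igfbp1 to Igfbp7, out of 49089 genes counted in every sample. Only 2 of the 9, Igfbp4 and Igfbp7, had enough reads to be tested, among 11368 tested genes. The cells had been transfected with control siRNA (Control), with siRNA against FoxK1 (FoxK1 KD) or FoxK2 (FoxK2 KD), or against both (double knockdown, DKD). FoxK1 and FoxK2 are forkhead transcription factors, and the study asked how their loss alters gene expression at rest and after insulin. All groups were kept without serum overnight in medium with bovine serum albumin. Each siRNA group was then sampled at basal and at 6 h of insulin at 100 nM, which gave 8 groups and 30 samples. The sample labels give the basal cells as untreated with a time of 0, whereas the treatment protocol and the methods describe a mock treatment beside the insulin treatment. If basal cells were taken at 0, the insulin comparisons also hold 6 h of culture, and insulin and time cannot be told apart. There were 4 samples in every group except insulin-treated Control and insulin-treated DKD, which had 3 each. Knockdown was transient and lowered the targets without removing them. The methods define n in general as animals or independent experiments, but nothing ties the RNA-seq samples of a group to separate cultures, so the p-values measure the spread between these samples, which may be technical.

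IGF1 and IGF2 are secreted growth factors that act mainly through the IGF1 receptor, and in adult mammals the liver is the main source of circulating IGF1. Most IGF in blood and tissue fluid is held by IGF-binding proteins, which prolong its life and control its access to the receptor. Several binding proteins also act without IGF, and IGFBP7 binds IGF weakly compared with the others. In liver, Igfbp1 is a well known gene that insulin lowers, through a forkhead-bound insulin response element in its promoter.

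Upstream sequences are shown for Igfbp1, the family member with the known insulin response element, and for Igfbp4 and Igfbp7, the members with measurable expression. Each is the 250 bases before the RefSeq transcription start, read 5′ to 3′ on the gene's strand (GRCm38.p6). Capitals mark a match to either of a pair of searched motifs, the forkhead motif GTAAACA and the insulin response type motif CAAAACA, on either strand. The windows were chr11:7197537-7197786 (plus strand) for Igfbp1, chr11:99040994-99041243 (plus strand) for Igfbp4 and chr5:77408046-77408295 (minus strand) for Igfbp7.
Igfbp1: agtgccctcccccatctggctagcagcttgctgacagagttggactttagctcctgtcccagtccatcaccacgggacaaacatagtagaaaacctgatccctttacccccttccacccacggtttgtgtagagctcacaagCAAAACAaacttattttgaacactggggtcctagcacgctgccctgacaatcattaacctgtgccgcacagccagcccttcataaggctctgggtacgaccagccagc
Igfbp4: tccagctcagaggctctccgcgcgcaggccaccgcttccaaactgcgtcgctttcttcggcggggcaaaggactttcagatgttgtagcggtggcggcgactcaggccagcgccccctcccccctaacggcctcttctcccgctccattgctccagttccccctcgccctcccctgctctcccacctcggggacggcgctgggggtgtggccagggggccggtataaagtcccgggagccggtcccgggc
Igfbp7: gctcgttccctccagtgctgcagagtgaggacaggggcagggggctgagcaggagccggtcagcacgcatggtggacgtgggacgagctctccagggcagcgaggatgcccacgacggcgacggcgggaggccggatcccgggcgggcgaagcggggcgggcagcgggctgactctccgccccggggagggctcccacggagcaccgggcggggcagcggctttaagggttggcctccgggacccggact
The Igfbp1 window held 1 CAAAACA match, which began 108 bases before the start site (position -108). The Igfbp4 and Igfbp7 windows held neither motif. Over 13 windows of the 9 members, the Igfbp1 window was the only one with a match, while GTAAACA or its reverse complement occurred in 3.17% and CAAAACA or its reverse complement in 5.56% of 32841 mouse windows of the same length. The Igfbp4 and Igfbp7 windows were rich in G and C, at 69.2% and 74%, with 22 and 26 CG dinucleotides, against medians of 52.4% and 6 over all windows. The absence of these letters from a window says nothing of binding elsewhere.

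The samples held between 2141460 and 5668270 counts each. Levels are given as CPM, counts scaled to a common library size, on TMM-adjusted library sizes for single samples and on the summed totals where called pooled. Foxk1 fell by 1.14 on the log2 scale in FoxK1 KD cells (SE 0.12; adjusted p = 6.19e-08, edgeR quasi-likelihood test) and by 0.82 in DKD cells (SE 0.12; adjusted p = 8.92e-06), both against Control at basal. Foxk2 fell by 1.57 in FoxK2 KD cells (SE 0.09; adjusted p = 8.30e-15) and by 1.49 in DKD cells (SE 0.09; adjusted p = 8.15e-14). Foxk2 was also lower in FoxK1 KD than in Control cells at basal, at 101 to 128 CPM against 133 to 150, and passed the test (edgeR). FoxK1 KD cells thus had less RNA of both targets. Foxk1 in FoxK2 KD cells overlapped Control at basal, at 58.0 to 83.7 CPM against 66.2 to 88.4, and did not pass. In Control cells Foxk1 was lower after insulin, at 49.0 to 57.8 CPM, and passed the test. Of 8 hepatocyte markers, Krt8, Krt18 and Hnf4a had at least 1480, 2182 and 308 counts in every sample. The others were lower: Ttr ranged from 55 to 205 counts, Trf from 15 to 97, Alb (albumin) from 9 to 277, Afp from 6 to 28 and Apoa1 from 0 to 12. Of 10 markers of other liver cells, Krt19, a keratin of bile duct cells, was abundant (945 to 2657 counts). The remaining 9 stayed between 0 and 14 counts, with Adgre1, Lyve1 and Epcam at 0 in all samples. Krt19 made up nearly all of the summed level of that list, which ranged from 325 to 366 CPM in FoxK1 KD and from 422 to 471 CPM in DKD cells at basal, within or below the Control range of 379 to 754. Krt19 itself was lower in FoxK1 KD than in Control cells at basal by 0.70 on the log2 scale (adjusted p = 3.51e-04, edgeR). After insulin the list summed to 546 to 605 CPM in Control cells, inside their basal range. It was higher after insulin without overlap in the other siRNA groups, at 421 to 552 CPM in FoxK1 KD, 531 to 670 in FoxK2 KD (381 to 471 at basal) and 474 to 556 in DKD cells. Krt19 rose with insulin in FoxK1 KD cells by 0.51 (adjusted p = 0.00197) and in FoxK2 KD cells by 0.39 (adjusted p = 0.0146, edgeR), and did not pass in Control (0.03) or DKD cells (0.18). The part of this list in the results was not tested. Control basal replicate 1 stood apart, with a root-mean-square deviation of 0.364 from its group mean in log2-CPM against 0.178 to 0.253 in the other samples. The 12 basal libraries of Control, FoxK1 KD and FoxK2 KD cells also differed from the other 18. Of 11368 tested genes, 52 were lower and 83 were higher in all 12 than in all 18. The labels give no batch for that split, and it runs through the comparisons of DKD cells with Control, FoxK1 KD and FoxK2 KD cells at basal, through the insulin comparisons in all but DKD cells, and so through the test of whether DKD and Control cells differ in their insulin effect.

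Neither ligand was measurably expressed. Igf1 (ENSMUSG00000020053, chromosome 10: 87858265 to 87937042) had 33 counts over the 30 samples together, 0 to 5 in any sample, which is a pooled level of 0.303 CPM (95% Poisson interval 0.208 to 0.425). By group, the pooled Igf1 level lay between 0.0978 CPM in Control cells after insulin, from 1 count, and 0.484 in FoxK1 KD cells after insulin, from 5 counts, and these intervals overlapped. Igf2 (chromosome 7: 142650766 to 142666816) had 0 counts in every sample, which allows a level of up to 0.0275 CPM over all samples (3 counts of the total). Intervals and floors cover counting error only. Igf2 shares 62.8% of its exon bases with Gm49394 on the same strand, which is not in the deposited gene list, and 1.71% with Igf2os on the other strand. The imprinted noncoding RNA H19, a neighbour of Igf2 that is often expressed with it, was also at 0 in all samples.

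Of the 7 binding proteins, 5 were near or at the limit of counting. Igfbp1, the classic hepatic insulin-lowered binding protein, had a single count in 30 samples, in FoxK1 KD cells after insulin, and 0 elsewhere. Igfbp2, another binding protein made by liver, had 3 counts, with 2 in a FoxK2 KD basal sample and 1 in a Control insulin sample. Igfbp5 had 28 counts (0 to 2 per sample) and Igfbp6, which prefers IGF2, had 21 counts (0 to 4 per sample), or 0.257 and 0.193 CPM pooled. A fall of Igfbp1 or Igfbp2 with insulin was therefore not detectable at this depth, since there was no basal level to fall from. Igfbp1 and Igfbp3 lie next to each other on chromosome 11 with 3539 bp between them, and Igfbp2 and Igfbp5 likewise on chromosome 1 with 5457 bp between them. Both neighbouring pairs were thus among the low members.

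**Figure D1:**
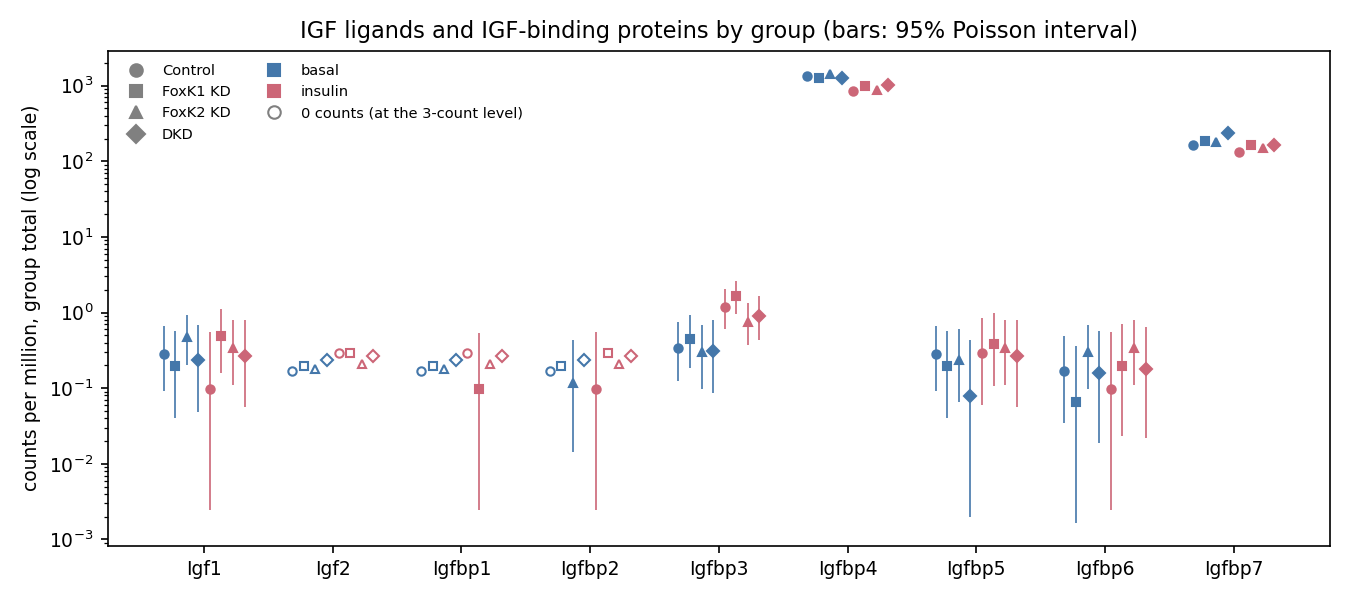
Pooled CPM in each group's summed libraries (vertical log axis) for the 9 genes, blue for basal and red for insulin, with a marker shape for each siRNA group; bars are 95% Poisson intervals and open markers stand for 0 counts, placed at the level of 3 counts. Igfbp4 is the highest and Igfbp7 the next in every group, while the other 7 genes lie at or below 1.65.

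Igfbp3, which carries most IGF in the circulation in a complex with the acid-labile subunit, was the most counted of the low members with 72 counts, 0 to 9 per sample. Its counts were 2, 2, 1 and 1 in the Control basal samples and 1, 9 and 2 after insulin. In FoxK1 KD cells they were 1, 2, 2 and 2 at basal and 2, 5, 4 and 6 after insulin. FoxK2 KD cells had 1, 1, 1 and 2 counts at basal and 6, 2, 3 and 0 after insulin, and DKD cells had 0, 1, 3 and 0 at basal and 2, 4 and 4 after insulin. Pooled levels after insulin were above those at basal in all 4 siRNA groups, from 0.453 to 1.65 CPM in FoxK1 KD cells and from 0.340 to 1.17 in Control cells. By CPM the samples overlapped in all but FoxK1 KD cells, where the highest basal sample (0.660) and the lowest insulin sample (0.739) had 2 counts each. With no filter on low counts, when 23784 genes were tested, the largest difference was in FoxK1 KD cells (log2 fold change 1.73, SE 0.68; adjusted p = 0.0695, edgeR). The Control value was 1.65 (SE 0.76; adjusted p = 0.171). None of 96 tests of low members over all comparisons passed an adjusted p of 0.05, and 2 of them had an unadjusted p below 0.05, both of Igfbp3 with insulin. In some of the 96, most of them of Igfbp1 and the rest of Igfbp2, all compared groups held 0 counts, so these tests could not pass. Igfals, which encodes the acid-labile subunit, had 2 to 10 counts per sample.

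Igfbp4 was one of the most abundant transcripts of the cells. Igfbp4 (ENSMUSG00000017493, chromosome 11: 99041244 to 99054392, plus strand) inhibits IGF action at the cell surface until it is cleaved by the protease PAPP-A. It averaged 1146 CPM, or 260 CPM per kilobase of exon, rank 98 of 11368 tested genes on the per-kilobase scale. Igfbp7 (chromosome 5: 77349240 to 77408041, minus strand), a secreted protein that binds IGF weakly and is found in basement membrane, averaged 173 CPM, or 143 CPM per kilobase, rank 214. Per kilobase the Igfbp4 level was between 1.35 and 2.65 times the Igfbp7 level in every sample. Igfbp7 shares 85 of its 1209 exon bases with Polr2b on the other strand, and whether reads were counted by strand is not given in the sources used here. In these bulk samples, fewer expressing cells and less RNA per cell cannot be told apart.

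Igfbp4 was lower after insulin in all 4 siRNA groups. In Control cells Igfbp4 was at 1857, 1216, 1411 and 1121 CPM at basal and at 877, 844 and 855 CPM after insulin. The samples did not overlap, with replicate 1 the highest of the basal group. The level after insulin was 61.3% of that at basal (log2 fold change -0.71, SE 0.10; adjusted p = 2.76e-06, edgeR), lower than the log2 fold change of nearly all tested genes (percentile 3.86). FoxK2 KD cells had 1349, 1564, 1434 and 1457 CPM at basal against 864, 886, 923 and 853 CPM after insulin. This was a fall to 60.7% with no overlap (-0.72, SE 0.09; adjusted p = 3.86e-07, edgeR).

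Igfbp4 also passed the test in the other groups, with values nearer to 0. In FoxK1 KD cells Igfbp4 was at 1259, 1144, 1288 and 1352 CPM at basal and at 953, 1008, 947 and 967 CPM after insulin. The groups did not overlap, and the level after insulin was 76.9% of basal (-0.38, SE 0.09; adjusted p = 0.00201, edgeR). In DKD cells the values were 1255, 1194, 1287 and 1208 CPM at basal and 996, 959 and 1060 CPM after insulin, again without overlap. The DKD level after insulin was 81.4% of basal (-0.30, SE 0.10; adjusted p = 0.0392, edgeR). This DKD call was lost when any of 6 of the 7 DKD samples was left out (adjusted p of up to 0.144, without DKD insulin replicate 2), while the log2 fold change stayed between -0.34 and -0.27. The DKD comparison lies within the 18 libraries named above, and there the fall in Igfbp4 is measured without that split.

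The difference in the insulin effect on Igfbp4 was tested directly. It was smaller in DKD than in Control cells by 0.41 on the log2 scale (SE 0.14; 95% interval 0.13 to 0.69), but the adjusted p was 0.145 (edgeR quasi-likelihood test), and 1.54% of tested genes were called in that comparison. The corresponding values were 0.33 (SE 0.14; adjusted p = 0.316) for FoxK1 KD and -0.01 (SE 0.14; adjusted p = 0.995) for FoxK2 KD. In those comparisons edgeR called 0% of tested genes, with 1519 genes for FoxK1 KD and 625 for FoxK2 KD at an unadjusted p below 0.05, and DESeq2 called 24 and 0 genes and limma-voom 0 in each. No member was called in any of the 3 comparisons by edgeR, DESeq2 or limma-voom, and at an unadjusted p below 0.05 Igfbp4 alone passed, in FoxK1 KD and DKD cells (edgeR). The DKD difference passed at an adjusted p of 0.0471 without Control basal replicate 4 and was 0.47 with an adjusted p of 0.0407 when each sample's trend with GC content and length was taken out. Control cells enter each of these differences, so they are not independent of each other, and the DKD difference crosses the split between 12 and 18 libraries. Without Control basal replicate 1, the library that stood apart, the insulin effect on Igfbp4 in Control cells was -0.54, against -0.71 with all samples.

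**Figure D2:**
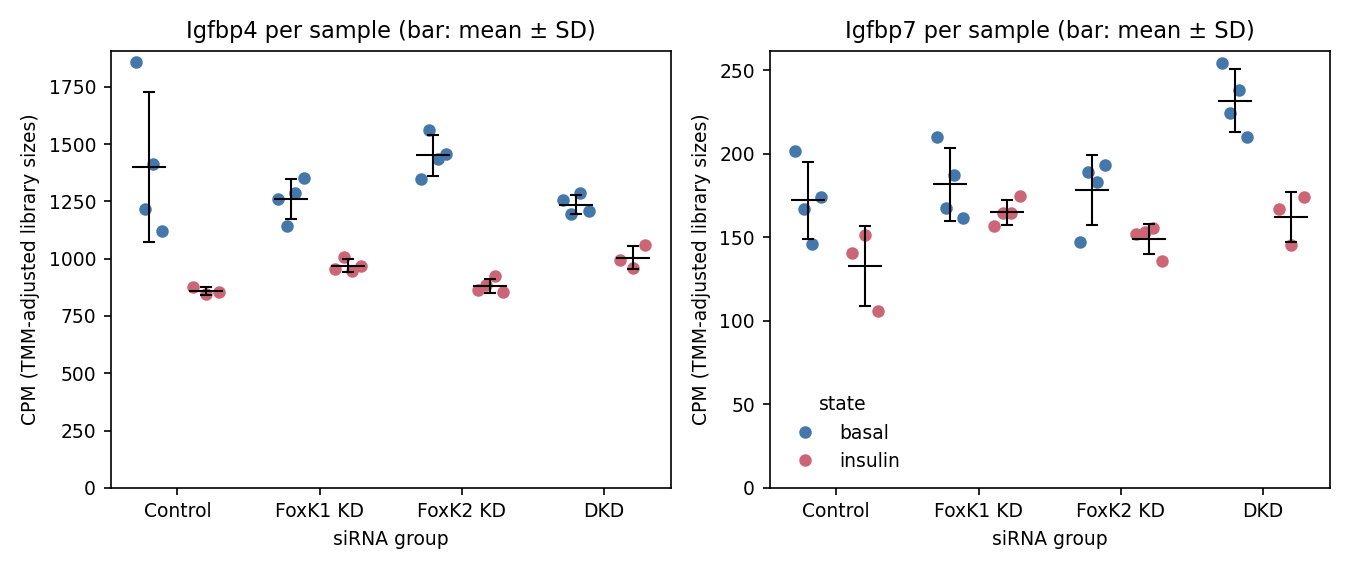
CPM of Igfbp4 (left) and Igfbp7 (right) in each of the 30 samples by siRNA group, blue for basal and red for insulin; points are samples and black bars the mean ± SD. Igfbp4 after insulin sits below every basal sample of the same siRNA group, and the 4 DKD basal samples hold the highest Igfbp7 values as a group, from 210 to 254 CPM.

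At basal, knockdown did not change Igfbp4 past the threshold. The group means were 1401 ± 327 CPM in Control (SD, n = 4), 1261 ± 86.7 in FoxK1 KD, 1451 ± 88.2 in FoxK2 KD and 1236 ± 42.7 in DKD cells, each with n = 4. Every knockdown range overlapped the Control range of 1121 to 1857 CPM, which was the widest of the 8 groups. Against Control the log2 fold changes were -0.15 for FoxK1 KD (95% interval -0.33 to 0.03), 0.05 for FoxK2 KD (-0.13 to 0.23) and -0.18 for DKD (-0.36 to 0.00). The adjusted p values were 0.328, 0.884 and 0.169 (edgeR). Without Control basal replicate 1, the library that stood apart, the DKD value was -0.02 (adjusted p = 0.858) and the FoxK1 KD value 0.02 (adjusted p = 0.937, edgeR). The DKD value became -0.27 (adjusted p = 0.0284, edgeR) without Control basal replicate 4, and -0.31 (adjusted p = 0.00488) with the GC and length trend taken out. DKD cells were also lower than FoxK2 KD cells, without overlap, by 0.23 (SE 0.09; adjusted p = 0.0778), which did not pass. In order of basal means, FoxK2 KD, Control, FoxK1 KD and DKD, no neighbours differed beyond their spread.

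Igfbp7 was higher in DKD than in Control cells at basal. It was at 202, 167, 146 and 174 CPM in Control cells and at 254, 224, 238 and 210 CPM in DKD cells, and the groups did not overlap. The DKD level was 1.35 times the Control level (log2 fold change 0.43, SE 0.10; adjusted p = 0.00282, edgeR), so that 1 of the 2 tested members was called, against 21.1% of all tested genes. The single knockdowns were at 210, 168, 187 and 162 CPM (FoxK1 KD) and 147, 189, 183 and 193 CPM (FoxK2 KD), both overlapping Control. Their log2 fold changes were 0.08 (SE 0.10; adjusted p = 0.676) and 0.05 (SE 0.10; adjusted p = 0.890), and no member was called in either comparison by edgeR, DESeq2 or limma-voom. At an unadjusted p below 0.05 there were also 0, and the share of tested genes called was 8.09% for FoxK1 KD and 0.378% for FoxK2 KD.

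The difference between the double and the single knockdowns was tested as well. Igfbp7 was higher in DKD than in FoxK1 KD cells by 0.35 (SE 0.10; adjusted p = 0.0121, edgeR), where 26.3% of tested genes were called. It was higher than in FoxK2 KD cells by 0.38 (SE 0.10; adjusted p = 0.0107), where 17% were called. The DKD samples overlapped neither group, although the lowest DKD value and the highest FoxK1 KD value both rounded to 210 CPM. Both comparisons cross the split between 12 and 18 libraries, as does that of DKD with Control cells at basal. Krt19 was also higher in DKD than in FoxK1 KD cells, by 0.38 (adjusted p = 0.0213, edgeR). FoxK1 KD and FoxK2 KD cells differed in Igfbp7 by 0.03 (95% interval -0.17 to 0.23). In that comparison 4.02% of tested genes were called and 0 members by edgeR, DESeq2 or limma-voom, with 1 member, Igfbp4, at an unadjusted p below 0.05 (edgeR; log2 fold change -0.20, SE 0.09; adjusted p = 0.231).

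All 3 Igfbp7 differences of DKD cells were lost when the trend with GC content and gene length was taken out of each sample. The value against Control was then 0.17 (adjusted p = 0.128), against FoxK2 KD 0.08 (adjusted p = 0.576) and against FoxK1 KD -0.05 (adjusted p = 0.728), the last with the direction turned. The longest Igfbp7 transcript is 58.8% G and C, and that of Igfbp4 55.1%. Across the tested genes, the log2 fold change of DKD against Control at basal correlated with GC content (Spearman's rho 0.466), and that against FoxK1 KD did so with rho 0.601. The summed level of 8 hepatocyte markers was 2276 to 2371 CPM in DKD cells at basal, against 1483 to 2417 in Control, 1654 to 1795 in FoxK1 KD and 1730 to 2086 in FoxK2 KD cells, and its part was not tested. The keratins Krt8 and Krt18 made up most of that sum, at means of 706 and 1102 CPM over all samples, with Hnf4a next at 134 CPM. The correlations are across genes that share the same libraries, given as a description. The part of GC content in the Igfbp7 values was not tested beyond this recalculation. The 2 members also moved apart in DKD cells at basal. The Igfbp4 to Igfbp7 ratio per kilobase was 1.47 ± 0.09 (SD, n = 4) there, against 2.23 ± 0.42 in Control, 1.92 ± 0.27 in FoxK1 KD and 2.25 ± 0.19 in FoxK2 KD cells, each with n = 4, and the DKD samples lay below all 12 others. This ratio was chosen after its values were seen and is not tested.

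**Figure D3:**
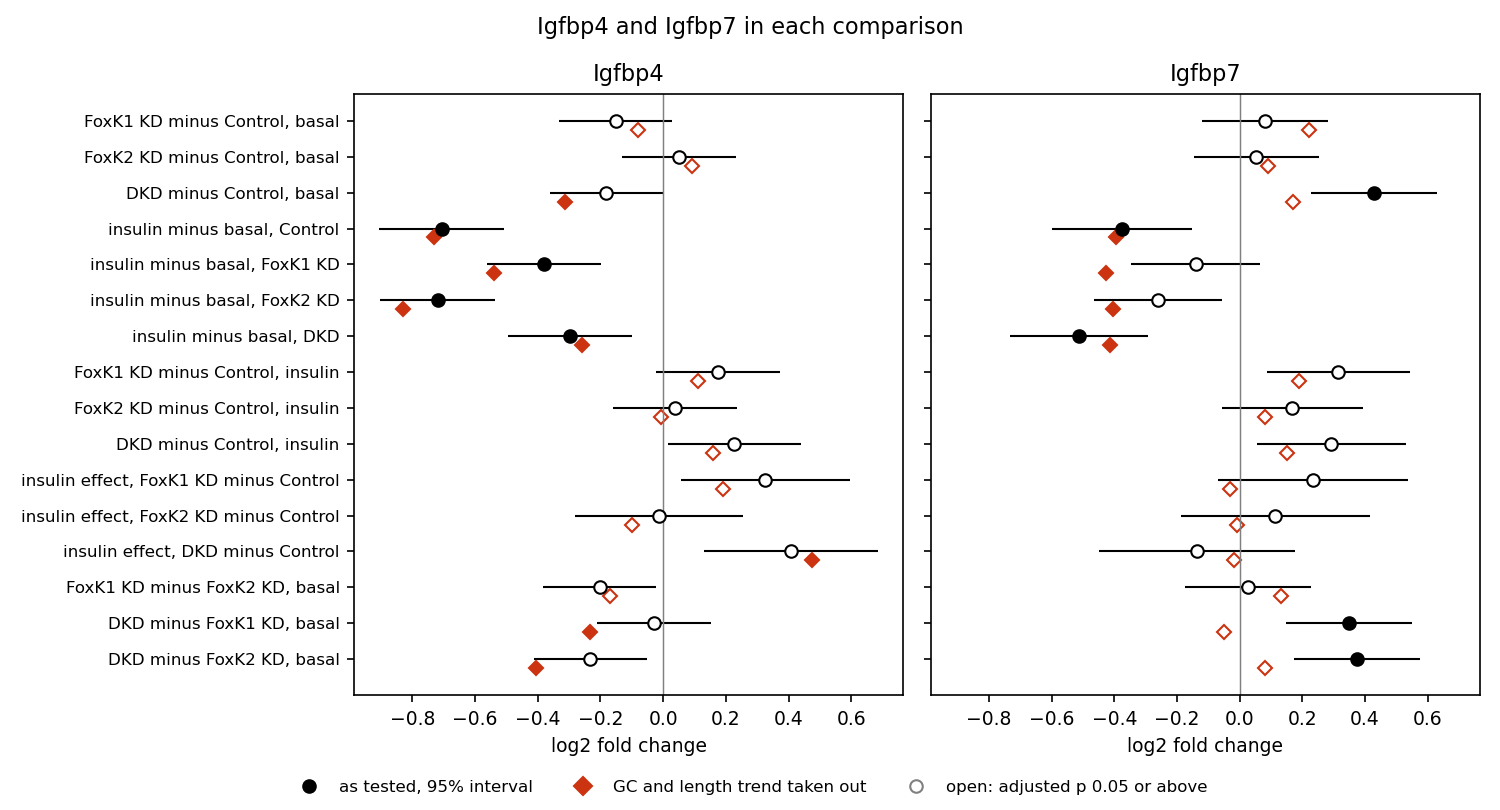
Log2 fold change of Igfbp4 (left) and Igfbp7 (right) in each of 16 comparisons, with 95% intervals (black circles) and after the GC and length trend was taken out (red diamonds); filled markers passed an adjusted p of 0.05. Igfbp4 fell with insulin in all 4 siRNA groups under both calculations, whereas the higher Igfbp7 of DKD cells at basal, 0.43 against Control, dropped to 0.17 and was no longer called.

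After insulin, Igfbp7 was lower in Control and DKD cells. Control cells had 141, 151 and 106 CPM after insulin, with 1 sample above the lowest basal sample of 146. The log2 fold change was -0.37 (SE 0.11; adjusted p = 0.0137, edgeR). It was -0.23 without Control insulin replicate 3 (adjusted p = 0.181) and -0.29 without Control basal replicate 1 (adjusted p = 0.0508). In the fit of those groups alone its adjusted p was 0.137. DKD cells had 167, 145 and 174 CPM after insulin, all below the DKD basal samples, a fall to 70.2% (-0.51, SE 0.11; adjusted p = 0.00146). The summed level of the 8 hepatocyte markers, mostly Krt8 and Krt18, was also lower after insulin in DKD cells, without overlap, at 1781 to 2159 CPM. It was higher without overlap in FoxK1 KD cells, at 1990 to 2313 CPM, and its part was not tested.

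In the single knockdowns the Igfbp7 differences with insulin did not pass. FoxK1 KD cells had 157, 164, 164 and 175 CPM after insulin, which overlapped basal (-0.14, SE 0.10; adjusted p = 0.322). FoxK2 KD cells had 152, 153, 155 and 135 CPM, with overlap as well (-0.26, SE 0.10; adjusted p = 0.0569). With the GC and length trend taken out, the values were -0.43 (adjusted p = 8.67e-05) and -0.40 (adjusted p = 1.41e-04), both called, beside -0.40 in Control and -0.41 in DKD cells. The insulin effect on Igfbp7 did not differ from that of Control cells in FoxK1 KD (0.23, SE 0.15; adjusted p = 0.523), FoxK2 KD (0.11, SE 0.15; adjusted p = 0.957) or DKD cells (-0.14, SE 0.16; adjusted p = 0.769) past the threshold.

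By siRNA group, both tested members were thus called lower after insulin in Control and DKD cells, and Igfbp4 alone in FoxK1 KD and FoxK2 KD cells. Parts of this pattern were not stable. The Igfbp4 call in DKD cells was lost in most fits that left out a single DKD sample. The Igfbp7 call in Control cells was lost when some single samples were left out. With the GC and length trend taken out, Igfbp7 was called in both single knockdowns. The share of all tested genes called lower with insulin was 13.1% in Control, 15.4% in FoxK1 KD, 13.7% in FoxK2 KD and 7.99% in DKD samples. Counting both directions, 25.4%, 31.6%, 28.1% and 16.3% were called. The median log2 fold change of the 2 members was -0.54 in Control, -0.26 in FoxK1 KD, -0.49 in FoxK2 KD and -0.40 in DKD cells. The median over all tested genes lay between -0.01 and 0.01 in each.

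Among insulin-treated cells, no knockdown differed from Control in either member at the threshold. Igfbp4 was at 859 ± 16.6 CPM in Control (SD, n = 3), 969 ± 27.5 in FoxK1 KD cells (n = 4), 881 ± 31.2 in FoxK2 KD cells (n = 4) and 1005 ± 50.8 in DKD cells (n = 3). FoxK1 KD and DKD samples lay above all Control samples, by 0.17 (SE 0.10; adjusted p = 0.377) and 0.23 (SE 0.11; adjusted p = 0.360, edgeR). Igfbp7 was at 133 ± 23.9 CPM in Control, 165 ± 7.48 in FoxK1 KD, 149 ± 9.11 in FoxK2 KD and 162 ± 15.0 in DKD cells (n as above). Its differences from Control were 0.32 (SE 0.12; adjusted p = 0.127), 0.17 (SE 0.11; adjusted p = 0.940) and 0.29 (SE 0.12; adjusted p = 0.277). By edgeR, DESeq2 and limma-voom 0 members were called in each of these 3 comparisons, in which 3.59%, 0.0264% and 1.21% of tested genes were called. At an unadjusted p below 0.05, the edgeR test gave 1 member in FoxK1 KD, 0 in FoxK2 KD and 2 in DKD cells.

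The receptor Igf1r also fell with insulin in all 4 siRNA groups. Igf1r, the receptor for both ligands, was at 151, 140, 152 and 158 CPM in Control cells at basal and at 86.5, 92.3 and 96.2 CPM after insulin, without overlap. It fell by 0.71 in Control (adjusted p = 4.45e-07), 0.41 in FoxK1 KD (adjusted p = 2.90e-04), 0.92 in FoxK2 KD (adjusted p = 4.77e-10) and 0.59 in DKD cells (adjusted p = 2.43e-05, edgeR). After insulin Igf1r was higher in FoxK1 KD than in Control cells by 0.54 (SE 0.09; adjusted p = 5.92e-04, edgeR). Insr, the insulin receptor, fell by 0.52 in Control cells (SE 0.11; adjusted p = 4.40e-04). Igf2r, which clears IGF2 from the cell surface, did not pass in any siRNA group. Thus 2 of 3 receptors fell in Control, FoxK1 KD and FoxK2 KD cells and 1 of 3 in DKD cells, and none of the 3 was called in any knockdown against Control at basal.

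**Figure D4:**
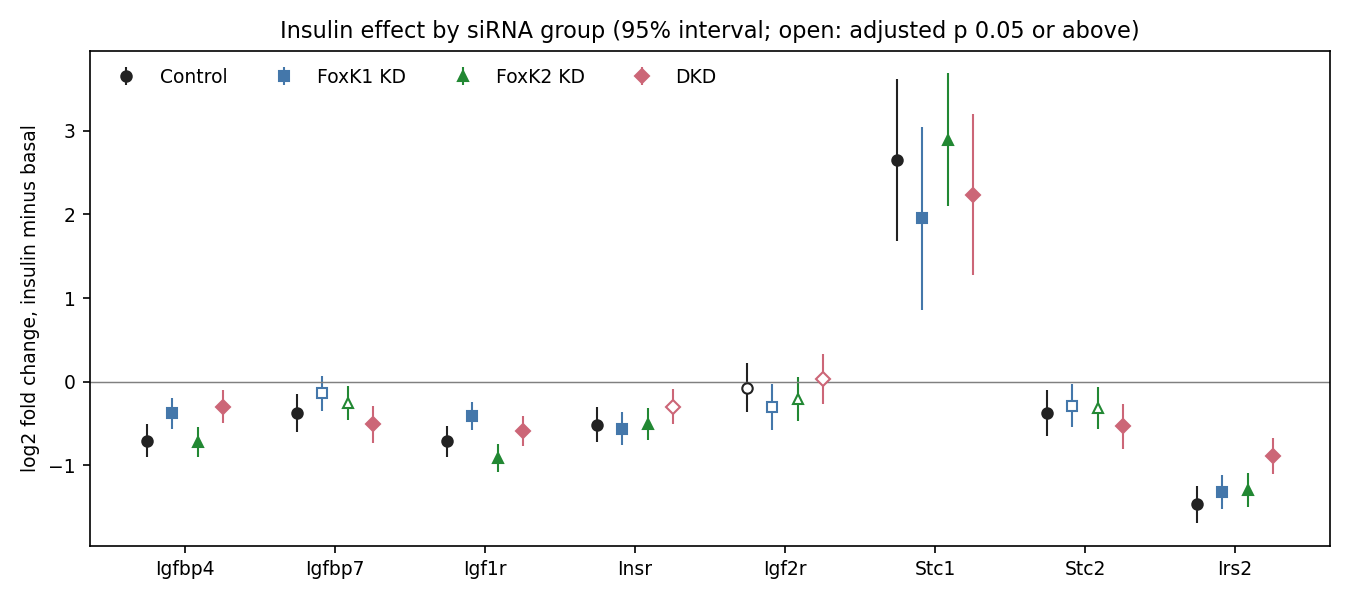
Log2 fold change of insulin against basal (vertical axis) for Igfbp4, Igfbp7, the receptors Igf1r, Insr and Igf2r, the stanniocalcins Stc1 and Stc2, and Irs2; marker shape and colour give the siRNA group, bars are 95% intervals and open markers did not pass an adjusted p of 0.05. Igfbp4, Igf1r and Irs2 lie below 0 in all 4 groups, and Stc1 lies above 1.9.

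The proteases that release IGF from binding proteins were hardly counted. Pappa, which encodes the IGFBP4 protease PAPP-A, had 0 to 2 counts per sample, and Pappa2, whose product cleaves IGFBP3 and IGFBP5, had 0 in all. Stc1 and Stc2 encode the stanniocalcins, which inhibit these proteases. Stc1 rose with insulin in all 4 siRNA groups, by 2.65 in Control (adjusted p = 1.14e-04), 1.95 in FoxK1 KD (adjusted p = 0.00716), 2.89 in FoxK2 KD (adjusted p = 1.54e-06) and 2.24 in DKD cells (adjusted p = 0.00149, edgeR). These changes rest on 0 to 5 counts per sample at basal and 4 to 23 after insulin. Stc2 was higher in DKD than in Control cells at basal by 0.66 (SE 0.12; adjusted p = 2.73e-04). Its values were 103, 54.5, 56.8 and 75.2 CPM in Control and 123, 114, 109 and 107 CPM in DKD cells, without overlap. With insulin Stc2 fell by 0.54 in DKD cells (SE 0.14; adjusted p = 0.00523). The fall of 0.37 in Control cells (adjusted p = 0.0499) was 0.17 without Control basal replicate 1 (adjusted p = 0.308). Its call was also lost without Control basal replicate 4, Control insulin replicate 1 or Control insulin replicate 3 (adjusted p = 0.0964, 0.142 and 0.162, edgeR).

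Of the other lists, Irs2, an adaptor of insulin and IGF1 receptor signalling that insulin lowers in liver, fell by 1.47 in Control cells (SE 0.11; adjusted p = 1.02e-11) and by 0.89 in DKD cells (SE 0.11; adjusted p = 5.88e-07, edgeR). Pck1 and G6pc, the gluconeogenic genes of the same list, had 0 to 8 and 0 to 2 counts per sample and were not tested. Of 9 relatives that carry an IGFBP-type domain, 3 were tested. Ccn1, a matrix protein that supports adhesion, rose in DKD cells at basal by 0.49 (SE 0.13; adjusted p = 0.00787), which was 0.40 without DKD basal replicate 2 (adjusted p = 0.0504). It fell with insulin in Control cells by 0.58 (SE 0.16; adjusted p = 0.00560), which was 0.37 without Control insulin replicate 3 (adjusted p = 0.0998). Ccn4 rose in FoxK1 KD cells at basal by 0.46 (SE 0.09; adjusted p = 0.00132). Of 6 genes of the growth hormone axis, which drives hepatic Igf1, only the receptor gene Ghr was called in a knockdown at basal. It rose by 0.50 in FoxK1 KD cells (SE 0.15; adjusted p = 0.0357), and by 0.30 without Control basal replicate 1 (adjusted p = 0.134). The Ghr call was also lost without FoxK1 KD basal replicate 1, 2 or 3 (adjusted p = 0.0620, 0.106 and 0.0595, edgeR).

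Over the 30 samples, the 3 genes whose log2-CPM was most like that of Igfbp4 among 10641 protein-coding genes were Dirc2, Ctps2 and Ift46, with Pearson's r of 0.924, 0.916 and 0.913. For Igfbp7 they were Syf2, Bcam and Pdzk1ip1, with r of 0.901, 0.871 and 0.871. The members resembled each other less, with r of 0.588. These values describe samples that share groups and libraries and carry no test.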

How the data were processed

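RNA-seq was performed on 30 samples of AML12 cells. Per the labels, reads were processed with CASAVA 1.8, STAR 2.4.2a, featureCounts and genome build GRCm38.p4, and the paper's methods name a NEBNext mRNA kit and Illumina sequencing without stating strand. The authors deposited raw counts per gene and sample, with no normalization, for 49089 genes. Identifiers were matched to GENCODE M21 (GRCm38), which held 48435 of them. The annotation release used for counting is not given in the sources used here.

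Counts were filtered with filterByExpr, normalized by TMM and fitted in 1 model of 8 groups with edgeR 4.0.16 (glmQLFit, glmQLFTest; R 4.3.3). Benjamini-Hochberg adjustment ran over 11368 genes, and adjusted p below 0.05 was the threshold. The thresholds in the paper, 0.25 alone or with a fold change above 1.5, were alternatives, beside DESeq2 1.42.0, limma-voom (limma 3.58.1), upper-quartile scaling, other filters, fits of the compared groups alone, a replicate block, leaving out each sample, and a GC content and length trend taken out of each sample. Standard errors are the absolute log2 fold change over the square root of F. CPM used TMM-adjusted library sizes, and log2-CPM a prior count of 2. Tests were checked on simulated data. Plots and sequence searches used Python 3.11.15, pandas, numpy and matplotlib.

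The 9 members and all gene lists were chosen with earlier results of these data known. The text names every member, at most 2 called genes with the largest absolute change per list and comparison, Foxk1 and Foxk2, and for likeness the 3 protein-coding genes with the highest Pearson's r among those with a mean log2-CPM of 1 or more. With totals between 2141460 and 5668270 per sample, 3 counts equal 0.0275 CPM over all samples, the floor for a gene at 0. Samples of a group were checked for copies, and the lowest chi-square per degree of freedom was 1.70 over 42 pairs.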

Additional observations from a re-analysis of the deposited data

Results flagged for a closer look

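Of 72 sets of 4 samples examined over 12 genes, 5 held a sample whose gap to its nearest neighbour was large for the range of its group, and none of these concerned a member. Chance gives about 1 in 20 such sets. In Control cells at basal, Ccn4 was lowest in replicate 1 at 83.9 CPM (gap 0.865 of the range), Ghr was lowest in replicate 1 at 13.3 CPM (0.848), and Irs2 was highest in replicate 4 at 213 CPM (0.866). Ccn4 was highest in DKD basal replicate 4 at 127 CPM (0.843), and Igf1r was highest in FoxK1 KD basal replicate 4 at 189 CPM (0.87). Both replicate 1 values are from the Control library that stood apart from its group.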

How the results depend on the processing

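Igfbp4 fell with insulin in all 4 siRNA groups under every alternative, and its calls in Control and FoxK2 KD cells were kept under every alternative. Counts of called members depended on the threshold. At an adjusted p below 0.25 the count went from 1 to 2 for DKD against Control and against FoxK2 KD at basal and for insulin in FoxK2 KD cells, where 43.6%, 40.5% and 49.5% of tested genes were called. It went from 0 to 1 for FoxK1 KD against Control after insulin, FoxK1 KD against FoxK2 KD at basal and the DKD difference in insulin effect, where 15.1%, 16.5% and 9.88% were called. With a fold change above 1.5 required as well, the count was 0 for insulin in FoxK1 KD and DKD cells and for DKD against Control, FoxK1 KD and FoxK2 KD at basal, and 1 for insulin in Control cells.

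With the GC and length trend taken out, the count was 2 for insulin in FoxK1 KD and FoxK2 KD cells and 1 for the DKD difference in insulin effect. It was still 1 for DKD against each other basal group, with Igfbp4 called in place of Igfbp7, and Igfbp7 reversed to -0.0512 against FoxK1 KD. Over all results for single named genes, members included, 3 lost their call, 1 reversed and 6 gained a call in this setting. The losses were thus not all of Igfbp7. In fits of the compared groups alone, 5 results for single named genes, members included, lost their call and 2 gained one. Igfbp7 with insulin in Control cells was among the losses. For FoxK1 KD against Control at basal these fits called 0.426% of tested genes, against 8.09% in the main fit. Of the members, 1 was called for insulin in Control cells and 2 each for insulin in FoxK2 KD cells and DKD against FoxK2 KD. Without a filter on low counts these last counts were also 2. When single samples were left out, the count ranged from 1 to 2 for basal DKD against Control and for insulin in Control, FoxK2 KD and DKD cells. It ranged from 0 to 1 for the DKD difference in insulin effect and for DKD against FoxK1 KD and FoxK2 KD at basal. Igfbp7 lost its call against FoxK1 KD without FoxK1 KD basal replicate 2 (0.30), replicate 4 (0.29) or DKD basal replicate 1 (0.29), and against FoxK2 KD without FoxK2 KD basal replicate 1 (0.29) or DKD basal replicate 1 (0.32). Igfbp7 gained a call for insulin in FoxK2 KD cells without FoxK2 KD basal replicate 1 (-0.35).

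A fit with a replicate block changed no member's call, with Igfbp4 at -0.71 for insulin in Control cells and Igfbp7 at 0.43 for DKD against Control. Same-numbered samples of different groups did not deviate together (mean correlation -0.0134 over 99 pairs, range -0.205 to 0.199), so the numbers were not taken to pair samples. Depth leaves changes in the other 7 members out of reach.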
